A study of Oncorhynchus mykiss with 6 samples.

Results

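The small heat shock genes of rainbow trout (Oncorhynchus mykiss) liver were described from a table of read counts and FPKM values, which are read counts per gene divided by gene length and by the size of the library. The members were all listed genes whose symbol, case ignored, began with hsp30 or with hspb and a digit, leaving out the co-chaperone hspbp1. The rule took 13 of the 5045 listed genes. Of these, 4 rows named hsp30 carried identical values in every library and were counted once, which left 10 members, 9 hsp30 copies and hspb11. The hsp30 copies are called copy A to copy I here, in descending order of their mean FPKM in heat. Liver libraries of a control group at 18 °C (n = 3) were set against liver libraries of a heat stress group at 24 °C for 8 h (n = 3). The treatment labels word both temperatures as applied to the liver, whereas the design text words the heat as applied to the fish. No duration is given for the control. Each library was made from liver tissue and from total RNA. Strain, age, sex and pooling are not stated in the labels. Nor do the labels state whether each library comes from a different fish, and the p-values measure only the spread between libraries, which may be technical.

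Small heat shock proteins are chaperones that bind unfolding proteins without using ATP and hold them in a form that Hsp70 and its partners can later refold. They share an α-crystallin domain and assemble into large oligomers. In fish and amphibians hsp30 names a branch of the family that is little expressed in unstressed cells, and heat shock factor Hsf1 drives transcription of such genes during heat stress. In zebrafish hspb11 encodes a small heat shock protein, whereas in human the symbol HSPB11 has been used for the intraflagellar transport protein IFT25. The table does not settle which of these the trout gene resembles.

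All listed genes had been selected by the submitters on the same contrast. In the authors' deposited table the largest adjusted p is 0.049875 and the smallest absolute log2 fold change is 1.00019. Every listed gene tested here was in turn called higher or lower, so the call of a member followed from its being listed. Genes outside the list were not analysed here. Counts over the listed genes summed to between 1409460 and 1421082 in the control libraries and to between 2663575 and 3586127 in the heat libraries. The full depth of the libraries is unknown, although their relative depth could be recovered. Of the hepatocyte markers, 6 genes were listed and tested, of which 5 rose and 1 fell, beside 58.1% and 41.9% of all tested listed genes. Their summed level was 8749 to 9267 FPKM in control and 11031 to 11343 FPKM in heat. The largest change among them was that of APOB, from 0.0877 to 26.3 FPKM. The most abundant in control, rbp4, which encodes the retinol carrier of plasma, fell from 5950 to 1998 FPKM, and the 2 HP genes, which encode haptoglobin, rose from 2298 to 6491 FPKM and from 656.5 to 1898 FPKM.

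Messenger RNA of hsp30 was scarce in control liver and abundant after heat in every library. Summed over the 9 copies, hsp30 stood at 6.66, 6.25 and 5.998 FPKM in control replicates 1 to 3 and at 418.5, 385.5 and 392.5 FPKM in heat replicates 1 to 3. The groups did not overlap, and the mean rose from 6.30 ± 0.334 to 398.9 ± 17.4 FPKM (SD, n = 3), a ratio of 63.3. In reads, the control libraries held 83, 79 and 78 over all copies and the heat libraries held 8107, 5628 and 5560. The control values of single copies thus rested on few reads, and the sum is the better measured quantity. In bulk liver, more RNA per cell and more cells that express a gene cannot be told apart.

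All 10 members rose in heat with limma-voom (Benjamini-Hochberg adjusted p under 0.05). In addition, all heat FPKM values of each member lay above all of its control values. Over all 4766 tested listed genes, 2770 (58.1%) rose by the same rule and 1996 (41.9%) fell, so every tested listed gene was called. Every heat value lay above every control value in 57.9% of them. Because each listed gene had been selected as changed, the count of members is a description and carries no weight of its own. In 5 members, copies A, G, H and I and hspb11, no control library reached the minimum of 10 counts. These members passed the count filter through the heat group alone. Fitted log2 fold changes of the members ranged from 4.94 to 10.38 with a median of 5.74, beside a median of 1.13 over all tested listed genes. Only 1.95% of the tested listed genes had a fitted log2 fold change at least as large as the lowest fitted value of a member, that of copy F.

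**Figure D1:**
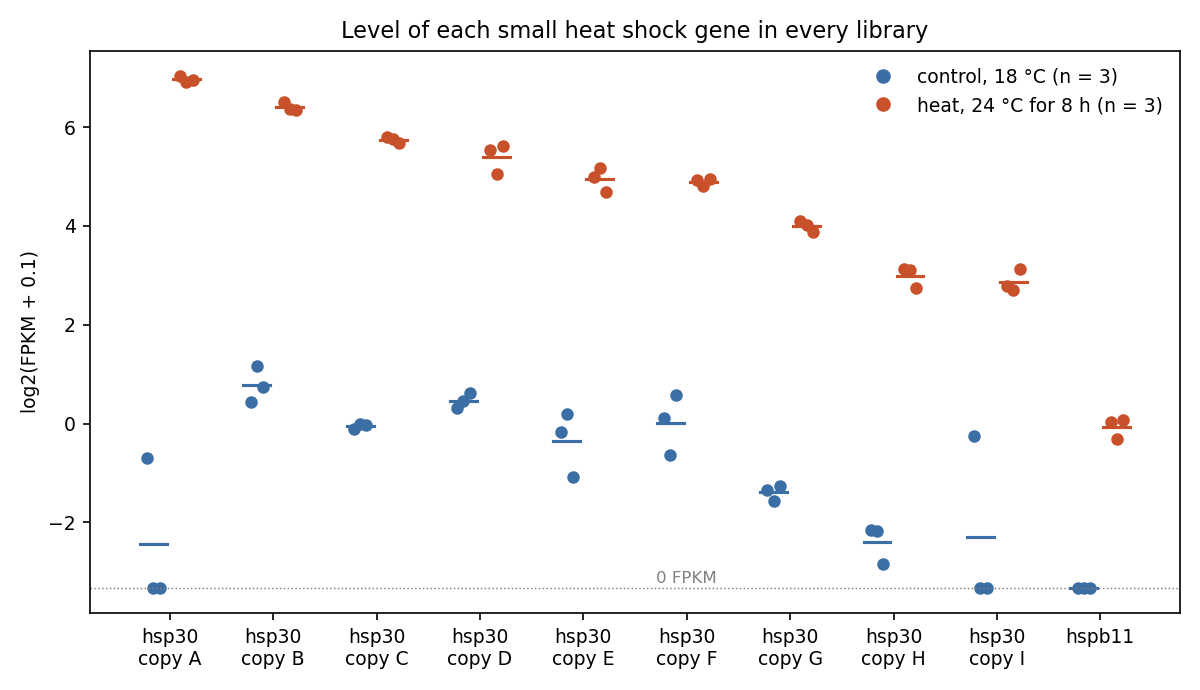
Level of each member as log2(FPKM + 0.1), with 1 point per library, blue for the 3 control libraries and red for the 3 heat libraries, and a bar at the mean of the log2 values. Every red point lies above the blue points of the same gene, and the dotted line marks 0 FPKM, where copies A and I stand in control replicates 2 and 3 and hspb11 in all 3 control libraries.

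Copy A had the highest level in heat and no count in 2 of the 3 control libraries. It had 6, 0 and 0 counts in control replicates 1 to 3, or 0.518, 0 and 0 FPKM, and 2505, 1755 and 1745 counts in heat replicates 1 to 3, or 130.5, 121.1 and 124.5 FPKM. All of its control reads lay in a single library, while its 3 heat values were close together, with a coefficient of variation of 3.80%. Its fitted log2 fold change was 10.38 ± 0.71 (SE), which ranked 2 among the 4766 tested listed genes. The adjusted p by limma-voom was 9.44e-19, but copy A passed the count filter through the heat libraries alone, so this p is descriptive only. The size of the fold change depends on the few control reads. The summed counts at equal library totals gave a ratio of 782.9 and the mean FPKM values a ratio of 725.9. Without control replicate 1 no control count remained. Set against a floor of 3 counts in the remaining control libraries together, copy A was then at least 1048-fold higher in heat. This value holds against control replicates 2 and 3 only and is no lower bound on the change over all libraries. The fitted log2 fold change was 9.77 without control replicate 2 and 9.75 without control replicate 3.

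Copy B was the most abundant copy in control by its mean and the next after copy A in heat. It measured 1.25, 2.14 and 1.58 FPKM in control replicates 1 to 3 and 91.3, 82.0 and 81.7 FPKM in heat replicates 1 to 3. The groups lay far apart, with a log2 fold change of 5.71 ± 0.27 (SE) and an adjusted p of 6.58e-25 by limma-voom. With 61 control and 4089 heat counts it is the member whose change was measured with the smallest standard error. Copy C measured 0.831, 0.895 and 0.877 FPKM in control and 55.7, 54.3 and 50.9 FPKM in heat. It was the steadiest of the copies in control and rose by 5.91 ± 0.37 (SE) on the log2 scale.

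Copies D, E and F formed a middle group in heat. Copy D measured 1.14, 1.27 and 1.43 FPKM in control replicates 1 to 3 and 46.4, 33.0 and 48.9 FPKM in heat replicates 1 to 3. Its heat replicate 2 stood below the other heat libraries. Copy E measured 0.788, 1.04 and 0.372 FPKM in control and 31.6, 36.2 and 25.7 FPKM in heat, and copy F measured 0.978, 0.542 and 1.39 FPKM in control and 30.4, 27.9 and 30.9 FPKM in heat. Their log2 fold changes were 5.01 ± 0.34, 5.39 ± 0.44 and 4.94 ± 0.36 (SE) for D, E and F. That of copy F was the lowest fitted value of all members. By summed counts at equal library totals, copies F and I had nearly the same ratio, 30.06 and 29.99, although the fitted value of copy I was 6.07.

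Copies E and F moved in opposite directions among the control libraries. Copy E was lowest in control replicate 3, where copy F was highest, and highest in control replicate 2, where copy F was lowest. Their sum was 1.77, 1.58 and 1.76 FPKM in control replicates 1 to 3, with a coefficient of variation of 6.15%, against 46.0% for copy E and 43.8% for copy F alone. In heat the sum was 62.0, 64.1 and 56.6 FPKM, with a coefficient of variation of 6.41%, against 16.9% for copy E and 5.36% for copy F. The control values rest on 10, 13 and 5 counts for copy E and on 12, 7 and 18 counts for copy F. Whether the control differences exceed counting error was not tested. The pair was singled out after these values were seen. Reads that match more than 1 near-identical copy may have been split between them by the counting, so the value of each copy is less certain than the sum; the part of such splitting in the differences between copies was not tested.

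The lower copies followed the same direction. Copy G measured 0.293, 0.239 and 0.314 FPKM in control and 17.1, 16.1 and 14.6 FPKM in heat, a log2 fold change of 5.59 ± 0.57 (SE). Copy H, the value shared by 4 rows, measured 0.124, 0.122 and 0.040 FPKM in control and 8.59, 8.51 and 6.61 FPKM in heat. Its log2 fold change was 6.08 ± 0.70 (SE), or 5.30 without control replicate 3, on 4 control counts in all.

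In the 4 identical rows the listed counts and the FPKM values did not match. Their listed counts in control replicates 1 to 3 were 2, 2 and 0, while their FPKM values corresponded to 1.53, 1.51 and 0.506 reads at the counts per FPKM of the heat libraries. A listed count of 0 thus stood beside an FPKM above 0. Fractions of a read also separated the listed and implied values in other copies. In control replicate 1 copy G had 4 counts beside 3.61 reads and copy A had 6 beside 6.40. Copy C, with 11 counts beside 11.05 reads in control replicate 2, was closer. The listed whole numbers of all copies may therefore be rounded from fractions of reads. Whether reads were divided among the 4 rows was not tested. With each of the 4 rows added to the sum, hsp30 stood between 6.12 and 7.03 FPKM in the control libraries and between 411.1 and 444.3 FPKM in the heat libraries.

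Copy I, the lowest copy in heat, had 9, 0 and 0 counts in control replicates 1 to 3, or 0.743, 0 and 0 FPKM, and measured 6.78, 6.42 and 8.69 FPKM in heat. As for copy A, all of its control reads lay in control replicate 1. The fitted log2 fold change was 6.07 ± 0.74 (SE), while the summed counts at equal library totals gave a ratio of 29.99. The adjusted p by limma-voom was 2.36e-10, but copy I too passed the count filter through the heat libraries alone, so this p is descriptive only. Set against the same floor without control replicate 1, copy I was at least 60.2-fold higher in heat, which again is no lower bound over all libraries. The fitted log2 fold change was 5.39 without control replicate 2 and 5.35 without control replicate 3. Of the members, this copy had the largest adjusted p by limma-voom, and in the authors' deposited table its adjusted p was 0.011736 with a log2 fold change of 4.88.

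The gene hspb11 was much less abundant than any hsp30 copy. It had no count in any control library, and 45, 26 and 34 counts in heat replicates 1 to 3, or 0.924, 0.707 and 0.956 FPKM. The groups did not overlap, and hspb11 was at least 27.4-fold higher in heat. The floor was 3 counts in the control libraries together, which corresponds to 0.0317 FPKM. This floor covers counting error only. The adjusted p by limma-voom was 1.27e-10. Since hspb11 was listed on this contrast and passed the count filter through the heat libraries alone, this p is descriptive only. In the authors' deposited table its log2 fold change is 9.75, computed with a mean of 0.001 FPKM for the control group, so that number has no measured control level behind it.

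**Figure D2:**
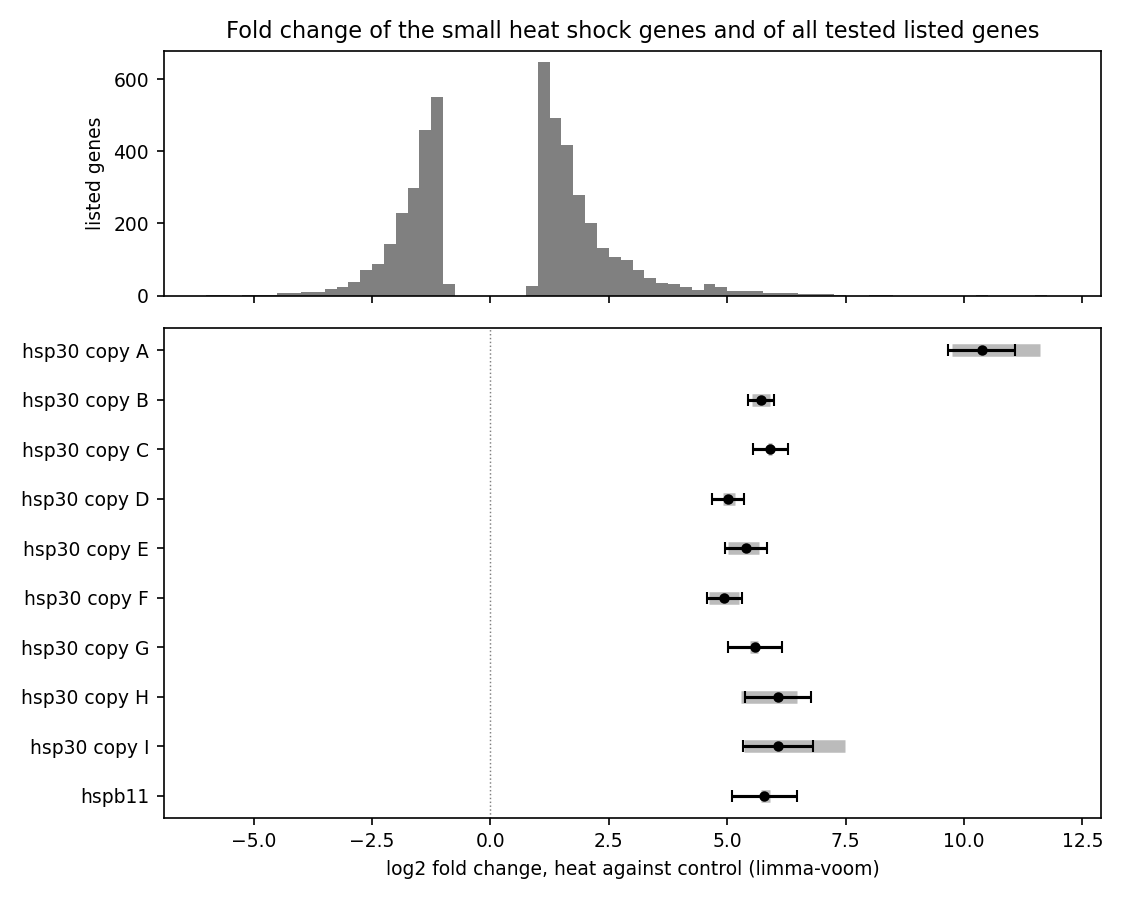
Upper panel, number of tested listed genes by log2 fold change, heat against control, from limma-voom, with few genes between -1 and 1 because the list was selected on the size of the change. Lower panel, the log2 fold change of each member with its standard error, over a grey bar that spans the values with each library left out in turn; copy A stands apart at 10.38 and the others lie between 4.94 and 6.08.

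By mean heat FPKM the order was copy A, B, C, D, E, F, G, H, I and then hspb11. The ranges of the 3 heat libraries overlapped between copies D and E, between E and F and between H and I. The ranges do not settle the order of these neighbours, and differences between neighbours were not tested. The other neighbours in the order had heat ranges that did not overlap. The control order was different, with copy B highest at 1.66 ± 0.454 FPKM (SD, n = 3), followed by copy D at 1.28 ± 0.146 FPKM and copy F at 0.970 ± 0.425 FPKM. The ratio of counts to FPKM, which follows gene length, was within 1% of that of copy B for 8 of the 9 copies, copy B included. Copy D was 1.08 times as long by this measure and hspb11 2.54 times as long.

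The shares of some copies in the summed level had different ranges in control and heat. Copy A made up 7.78%, 0% and 0% of the summed hsp30 FPKM in control replicates 1 to 3, and 31.2% to 31.7% in the heat libraries. In reads, 0 of 79 and 0 of 78 hsp30 counts in control replicates 2 and 3 were assigned to copy A. The exact Clopper-Pearson 95% intervals were 0% to 4.56% and 0% to 4.62%. In heat replicate 1, 2505 of 8107 counts were assigned to copy A, or 30.9% (exact 95% interval 29.9% to 31.9%). In control replicate 1 the share was 6 of 83 counts, or 7.23% (exact 95% interval 2.70% to 15.1%). These intervals, like the floor of 3 counts used above, cover counting error only, not the spread between libraries. The share of copy D was 17.1% to 23.8% of the summed FPKM in control and 8.56% to 12.5% in heat. The share of copy C was 12.5% to 14.6% in control and 12.96% to 14.1% in heat, with overlapping ranges. The differences in share were not tested, and they depend on how reads were assigned among copies. Without copy A the summed hsp30 level still went from 6.13 ± 0.126 to 273.5 ± 12.7 FPKM (SD, n = 3), a ratio of 44.6.

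**Figure D3:**
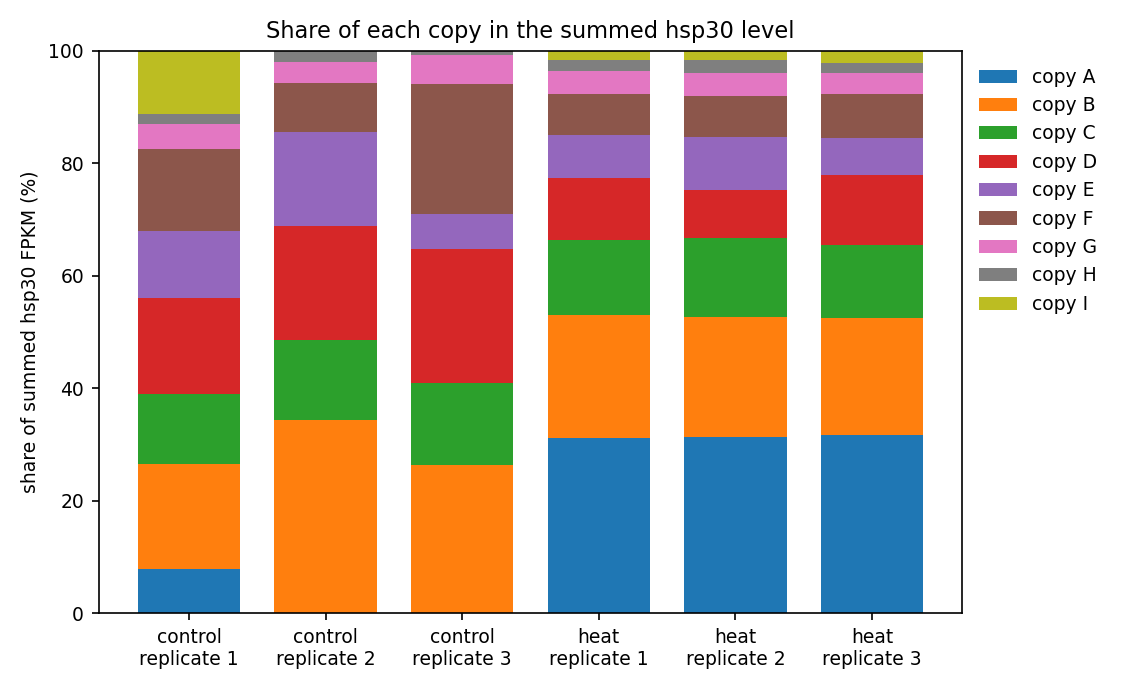
Share of each hsp30 copy in the summed hsp30 FPKM of each library, in percent, stacked from copy A at the bottom to copy I at the top. In the heat libraries copy A makes up 31.2% to 31.7%, while copy D ranges from 8.56% to 12.5% and copy E from 6.54% to 9.39%. The control shares rest on 78 to 83 reads per library, and copies A and I appear there in replicate 1 only.

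No other listed gene carried a symbol for a small heat shock protein, such as cryaa, cryab or hsp27. RefSeq's genes for the assembly USDA_OmykA_1.1 include 6 named hspb genes with a digit, hspb1, hspb2, hspb3, hspb6, hspb7 and hspb11, of which hspb11 alone shares its symbol with a listed gene. The others were not analysed here, and no statement can be made on whether heat changed them. No gene of that assembly's table has hsp30 as its symbol or synonym. The identifiers in the deposited table are truncated, and the members begin with ncbi_118 in 7 cases and with ncbi_110 in 3 cases, so the copies cannot be tied to loci.

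Listed genes of the Hsp70 and Hsp110 families and of their co-chaperones were mostly higher in heat as well. The list compared here was taken by symbol and covered hsp70, hspa1b, hspa2, hspa4, hspa4l, hspa8 and hspa13 genes, DNAJA and DNAJB genes, BAG genes, STIP1 and hspbp1. Other genes of these families, such as hspa5, hyou1, hsc71 and the DNAJC genes, were outside it. Of its 41 tested genes 40 rose and 1 fell with limma-voom, beside 58.1% and 41.9% of all tested listed genes, and their median log2 fold change was 3.70. Of the 41, 7 encode chaperones of the endoplasmic reticulum, such as DNAJB11. The 3 with the smallest p were an Hspa4 gene, which encodes an Hsp110-type exchange factor and rose from 6.08 ± 0.283 to 285.8 ± 4.80 FPKM (SD, n = 3), and 2 genes named hsp70, which rose 42.5-fold and 50.5-fold. The gene that fell was a further HSPA4 gene, from 0.641 ± 0.108 to 0.225 ± 0.0975 FPKM (SD, n = 3; log2 fold change -1.62). Another HSPA4 gene rose, from 7.15 ± 0.696 to 108.8 ± 2.04 FPKM. A fitted log2 fold change at least as large as the lowest fitted value of a small heat shock member was found in 14 of these 41 genes. Of the BAG genes, bag3, whose product links small heat shock proteins to Hsp70, rose from 0.225 ± 0.106 to 13.2 ± 1.14 FPKM. Its other listed copy, written Bag3, rose from 0.0203 ± 0.0205 to 1.42 ± 0.0785 FPKM, a rise of 57.5-fold on 3 control counts in all. The rise of Bag3 became 63.7-fold, 82.3-fold and 36.3-fold with control replicate 1, 2 and 3 left out in turn. The 5 tested genes whose symbol begins with hsp90a or hsp90b all rose, with a median log2 fold change of 5.14. The 5 include Hsp90b1, a symbol for the Hsp90 of the endoplasmic reticulum, which rose from 5.58 to 197.1 FPKM. A further gene for that protein, listed as grp94, was not counted with them. The most abundant of the 5, an hsp90a.1 gene, reached 850.5 ± 15.8 FPKM.

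An autophagy list was also taken by symbol. It held the BAG3 genes, the sqstm1 genes and synpo2b of chaperone-assisted autophagy, which removes proteins that cannot be refolded. Its other genes, such as ATG5 and GABARAPL, serve autophagy in general. Of its 14 tested genes 12 rose and 2 fell, beside 58.1% and 41.9% of all tested listed genes. Their median log2 fold change was 1.40, beside the 1.13 of all tested listed genes. The 2 sqstm1 genes, which encode a receptor for ubiquitinated cargo, rose 7.15-fold and 3.02-fold. The exceptions were atg7 and synpo2b, with log2 fold changes of -1.02 and -1.25. No heat shock factor gene was among the listed genes. The only listed gene of that group was hsbp1b, which encodes a protein that binds heat shock factor, and it fell from 3.86 ± 1.19 to 0.727 ± 0.496 FPKM (SD, n = 3; log2 fold change -2.49, adjusted p = 2.37e-05 by limma-voom).

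**Figure D4:**
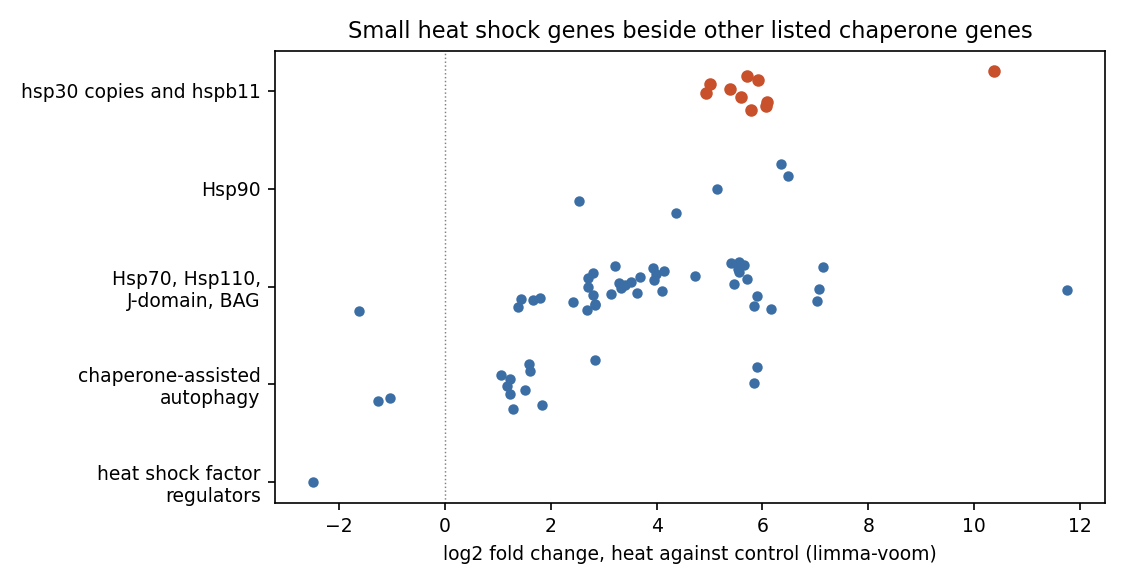
Log2 fold change, heat against control, from limma-voom, with 1 point per gene. The small heat shock members are in red, and the listed genes of the chaperone, autophagy and heat shock factor lists are in blue. The vertical spread within a row only separates the points. The members lie between 4.94 and 10.38, within the range of the Hsp70 row, and the BAG3 genes appear in both the Hsp70 row and the autophagy row.

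The listed genes most like copy A were found by the Euclidean distance between log2(FPKM + 0.1) values centred on each gene over the 6 libraries. The nearest 5 with a symbol were hspa1b, an inducible Hsp70, at a distance of 3.04, tcbp2 at 3.44, the J-domain co-chaperone dnaja at 3.48, an hsp70 gene at 3.68 and APOB, which encodes apolipoprotein B, at 3.71. No other hsp30 copy was that close, the nearest being copy C at 4.96. This measure follows the size of the change, and hspa1b went from 0.056, 0.113 and 0.110 FPKM in control replicates 1 to 3 to 354.5, 336.3 and 351.5 FPKM in heat.

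Markers of other cell types among the listed genes went both ways. The skeletal and cardiac muscle list held 3 listed genes, myh6 and 2 Ttn genes, whose summed level was 0.777 to 0.947 FPKM in control and 2.42 to 2.78 FPKM in heat. All 3 rose with limma-voom, but the Ttn calls ended when libraries were scaled by the median of ratios over the listed genes, at adjusted p = 0.338 and 0.0798. A single lens crystallin gene, Crybb3, was tested and fell, from 0.603 to 0.0933 FPKM. Of 11 tested myeloid and lymphocyte genes 9 rose and 2 fell, on the same background of 58.1% and 41.9%, with a summed level of 4.68 to 4.79 FPKM in control and 18.1 to 20.0 FPKM in heat. Both tested endothelium and stroma genes, col1a1b and egfl7, fell, from a summed 24.2 to 26.7 FPKM to a summed 10.1 to 10.7 FPKM, and no erythrocyte gene was listed. The part of these cell types in the hsp30 levels was not tested.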

How the data were processed

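Total RNA from rainbow trout liver was made into cDNA for sequencing, per the labels' protocols, and libraries were grouped by the treatment label. The submitters' processing notes name Bowtie2 2.2.8 and StringTie. Neither the genome build nor the authors' test is given in the sources used here. The deposited table gives counts, FPKM, mean FPKM, log2 fold change and p-values per gene, per the file headers, as fixed-width text of 8 characters per column that truncates identifiers. Some of the authors' p-values are cut short by this layout and are not printed. Limma-voom (limma 3.58.1, R 4.3.3) was run on the counts of all listed genes with at least 10 counts in 3 libraries, 4766 genes, with Benjamini-Hochberg adjustment over them. Library totals were taken from the median ratio of counts to FPKM of genes with no library below 200 counts or 5 FPKM. With control replicate 1 set to 1, they were 0.999 and 1.02 in the other control libraries and between 1.14 and 1.55 in heat. The fit was tested on simulated data in which only some genes changed, and by smaller folds than those of the members. It therefore does not cover changes of the members' size or their low control counts. All members were named, with the 3 genes of smallest p, or all where fewer were listed, in each chaperone, autophagy and heat shock factor list. Other genes of these lists and the marker genes were also named, after their values were seen. These list genes were DNAJB11, the further HSPA4 genes, the BAG3 genes, atg7 and synpo2b. The most abundant hsp90a.1 gene was also described by its level. From the lists, 9 genes matched by symbol alone were removed by identity after values had been seen. The members and lists were chosen with earlier results of these data known. Alternatives were other scalings, filters, pseudocounts, a replicate block and leaving out each library. Tables and figures used Python 3.11.15, pandas 2.3.3 and matplotlib 3.10.9.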

Additional observations from a re-analysis of the deposited data

How the results depend on the processing

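All 10 members kept their direction and an adjusted p under 0.05 under each of the 13 alternatives tried, which gave 130 of 130 unchanged calls. The list was selected on this contrast, so this says little about stability. With scaling over the listed genes by TMM or by the median of ratios, the log2 fold changes of all tested genes shifted. The median shift over genes was -0.53 and -0.91, respectively, and the members moved with it. With a pseudocount of 1 FPKM the log2 fold change of hspb11 was 0.89, since its level was below the pseudocount. The values of the hsp30 copies shrank as well. That of copy A went from 10.38 to 6.78, that of copy H from 6.08 to 3.02 and that of copy I from 6.07 to 2.78. With each identical row counted, 13 members rose. With the replicate number as a block, 10 members still rose. Libraries with the same number did not deviate together (correlations of 0.0267, 0.0116 and -0.00931 over 4766 genes), so no pairing by number was detected. With so few libraries per group, these correlations cannot exclude a pairing. The log2 ratio of the summed hsp30 level was 5.98, and between 5.95 and 6.03 with each library left out. It was 6.003 with each identical row summed and 5.97 from counts. The value from counts used library totals recovered from the FPKM values, so it is no separate check. TMM and median-of-ratios scaling were not applied to the sum. Control levels of single copies are limited by depth, with at most 26 counts per copy and library.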
